A study of Mus musculus with 2 samples.

Results

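The genes described here are 10 regulators of DNA methylation and of Polycomb repression that are known as genes mutated, lost or misexpressed in myeloid neoplasms. They are the DNA methyltransferases Dnmt1, Dnmt3a and Dnmt3b, the TET dioxygenases Tet1, Tet2 and Tet3, and the Polycomb genes Ezh1, Ezh2, Asxl1 and Bmi1. They were chosen by name, as every probe whose RefSeq accession belongs to one of them, and the rule itself uses no measured value, although the set was proposed with earlier results of these data known. All 10 were found among the 22911 genes with a symbol on the array, with 22 probes in all, and each of those probes had a signal well above background with CML EVs and with control EVs.

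The tested cells were LKS+ cells, that is lineage marker-negative, c-kit-positive and Sca-1-positive cells, which hold the hematopoietic stem/progenitor cells (HSPCs) of mouse bone marrow. They came from WT mice, were propagated in serum-free medium with stem cell factor, IL-6 and IL-3, and then received 150 µg/ml of spleen (SP)-derived extracellular vesicles (EVs) for 24 h. On 1 array the EVs came from the SP of CML mice (CML EVs), and on the other from the SP of normal mice (control EVs). CML mice are a model made by transplanting LKS+ cells that carry a BCR-ABL retrovirus into irradiated recipients. The study's methods state that the CML mice were irradiated before the EVs were taken, the sample labels do not mention it, and no irradiation is stated for the control mice, so that leukemia and irradiation of the EV donors cannot be told apart here. WT stands for male BALB/c or C57BL/6J mice in the study, and neither the strain used for these arrays nor the number of mice pooled is stated.

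DNA methyltransferases put methyl groups on cytosines that stand before a guanine. Dnmt3a and Dnmt3b set new marks, Dnmt1 copies them after DNA replication, and the TET enzymes oxidise methylcytosine, the step that starts its removal. Polycomb repressive complex 2 (PRC2), with Ezh1 or Ezh2 as its enzyme, methylates histone H3 at lysine 27, and Polycomb repressive complex 1 (PRC1), of which Bmi1 is a subunit, ubiquitinates histone H2A. Asxl1 is the partner of the deubiquitinase Bap1, which takes that ubiquitin away. In human myeloid neoplasms DNMT3A, TET2 and ASXL1 are recurrently mutated, and in mouse HSPCs loss of Dnmt3a or Tet2 increases self-renewal while loss of Bmi1 impairs it.

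Most promoters of these genes are rich in CG dinucleotides, the target of the DNA methyltransferases and TET enzymes among their products. RefSeq windows on the mouse assembly GRCm38.p6, from 250 bases before to 50 bases after a gene's start, matched 10 of the 10 genes and gave 14 windows, because Dnmt1 and Dnmt3a each have several starts. The 14 windows held a median of 23 CG dinucleotides, against 7 over all 32851 windows of the same length, and a median GC content of 68%, against 52.7%. The Tet2 window held 57 CG dinucleotides, and 99.8% of all windows held fewer, whereas the 3 Dnmt1 windows held 2, 12 and 33. The 100 bases directly before the start of Tet2 and of Dnmt3b, the genes with the highest and the lowest ratio of CML EV to control EV signal below, are printed 5′ to 3′ on the gene's strand with every CG dinucleotide in capitals, 20 in Tet2 (chr3:133544391-133544490, minus strand) and 14 in Dnmt3b (chr2:153649349-153649448, plus strand).
Tet2: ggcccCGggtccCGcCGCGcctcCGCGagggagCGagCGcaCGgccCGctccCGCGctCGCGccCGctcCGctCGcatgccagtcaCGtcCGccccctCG
Dnmt3b: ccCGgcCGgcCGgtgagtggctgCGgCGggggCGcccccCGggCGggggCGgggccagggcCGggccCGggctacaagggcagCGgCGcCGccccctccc

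Both strands of the windows were searched for 5 short motifs, and matches were allowed to overlap. GGGCGG, the GC box, was present for 8 of the 10 genes, all except Ezh1 and Ezh2. It was in 10 of the 14 windows and in 35.7% of all windows. CCAAT was present for Dnmt1, Ezh2 and Tet3, in 4 of the 14 windows and in 37.4% of all windows. TTTGGCGC, a form of the site of the E2F cell cycle factors, was present for Dnmt1 and Ezh2. It was in 2 of the 14 windows and in 0.514% of all windows. TTTCCCGC, another form of that site, was in none of the 14 windows and in 1.07% of all. An interferon-type element, GAAA and GAAA with 2 bases between them, was in none of the 14 windows and in 3.44% of all. The 30 bases around TTTGGCGC are printed with that motif in capitals, because Dnmt1 and Ezh2 are the pair of regulators with a known tie to the S phase. They lie at chr6:47595009-47595038 on the minus strand for Ezh2 and at chr9:20952574-20952603 on the minus strand for Dnmt1, with the first base of the motif 4 and 34 bases downstream of the start. A match describes the letters only and no binding was measured.
Ezh2: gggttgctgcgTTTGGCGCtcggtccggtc
Dnmt1: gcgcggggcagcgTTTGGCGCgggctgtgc

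The question put to the arrays was whether the transcript levels of these regulators in LKS+ cells differed between exposure to CML EVs and to control EVs. The differences were small: the 10 genes lay between 1.12-fold lower (Dnmt3b) and 1.13-fold higher (Tet2) with CML EVs, and none reached a ratio of 5 to 4 in either direction, which is 0.32 on the log2 scale. On the probe used for each gene, the DNA methyltransferases were all slightly lower and the TET genes all slightly higher with CML EVs. Of the Polycomb genes, Ezh1 was slightly higher and Ezh2, Asxl1 and Bmi1 slightly lower. On the probe used, only Dnmt3b, Tet2, Ezh1 and Asxl1 differed by more than the spread between repeated spots described below, and 0 of the 10 by more than the scanner software's error. Some further probes of Ezh2, Tet3 and Bmi1 also exceeded that spread. The other Asxl1 probe was within it and opposite in sign. The probes of Tet1 disagreed in sign, and scaling by the median put Dnmt1, Dnmt3a, Ezh2 and Bmi1 slightly higher. Each condition has 1 array, so that no difference here has a replicate check, no p-value is given, and the spread between cultures is unknown. All signals are processed Cy3 intensities scaled to a mean of 2500 per array without the upper and lower 2% of spots, and the log2 ratio is CML EV minus control EV.

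The arrays were of like quality. Well above background were 31635 spots (53.3%) with CML EVs and 32269 spots (54.4%) with control EVs, no spot was saturated, and the lowest signal well above background was 13.6 with CML EVs and 12.9 with control EVs. Over the 13409 genes well above background on both arrays the median log2 ratio was 0.0065, with quartiles at -0.09 and 0.09, and 52.0% of them were higher with CML EVs.

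The error on 1 array can be read from probes placed at 10 spots each. The SD of the log2 ratio between such spots had a median of 0.17 over 5 probes with signals below 128, 0.09 over 4 probes from 128 to 256, 0.07 over 6 probes from 256 to 4096, and 0.03 over 266 probes at 4096 and above. Single probes varied, with SDs of 0.15 to 0.47 below 128 and 0.073 to 0.13 from 128 to 256. They ran from 0.038 to 0.099 from 256 to 4096, and from 0.010 to 0.079 at 4096 and above. The SD of repeated spots named in the text is the median for the signal range. That SD covers the spread between spots and not between cultures or hybridizations. The scanner software gives a wider error for each spot, which comes to a standard error near 0.20 for the log2 ratio of most of the regulators' probes.

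Among the DNA methyltransferases, Dnmt3b, which sets new methylation, differed most. Its brightest probe read 5922 with CML EVs and 6633 with control EVs, a log2 ratio of -0.16. A further probe for the same transcript read 1940.2 with CML EVs and 2281 with control EVs (-0.23), and a dim probe for another Dnmt3b transcript read 32.4 with CML EVs and 44.8 with control EVs (-0.47). All 3 probes were thus lower with CML EVs, each by more than the median SD of repeated spots at its signal (4.87, 3.19 and 2.77 times that median). The dim probe's ratio did not exceed the highest SD below 128, which was 0.47. At 4096 and above, where the brightest probe lies, the highest SD was 0.079. The dim probe was the only one of the 22 probes past 0.32 in size. The brightest probe's ratio was smaller in size than the scanner software's error of 0.20, while the other Dnmt3b probes were beyond theirs (0.20 and 0.26), as were 5 of the 22 probes in all. For the brightest probe, 28.0% of all genes had a larger ratio in size.

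Dnmt3a, the second enzyme that sets new marks, read 676 with CML EVs and 705 with control EVs on its brighter probe (-0.060). Its dimmer probe read 197 with CML EVs and 207 with control EVs (-0.072). Dnmt1, which maintains methylation in dividing cells, has 1 probe, at 1465 with CML EVs and 1522 with control EVs (-0.055). These ratios, 1.04-fold lower for both genes, were within the SD of repeated spots of 0.07 at such signals. The 6 probes of the 3 methyltransferases were all lower with CML EVs.

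**Figure D1:**
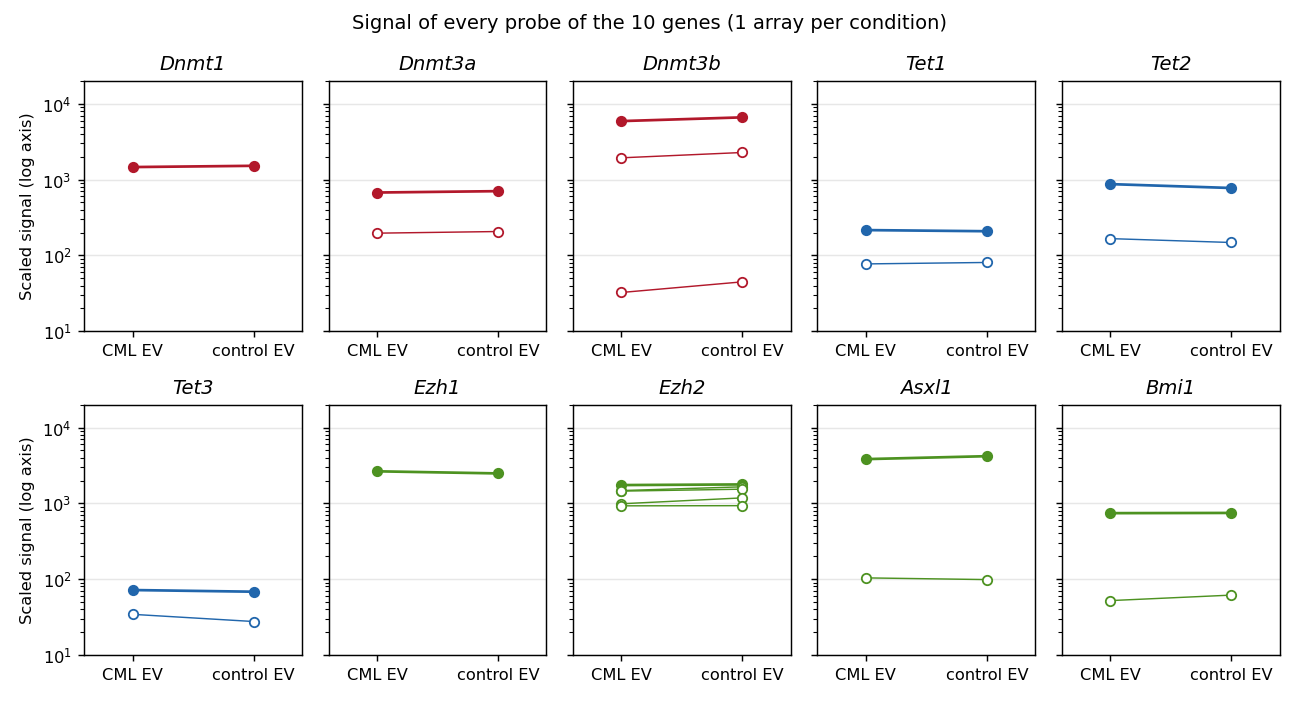
Scaled processed signal (log axis) of every probe of the 10 regulators, 1 panel per gene, with CML EVs on the left and control EVs on the right, 1 array each, and the probe used for the gene filled. The lines run nearly level: of the filled probes the widest gaps are Tet2, at 873 with CML EVs and 776 with control EVs, and Dnmt3b, at 5922 with CML EVs and 6633 with control EVs.

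Among the TET genes, Tet2, whose loss is a common event in human clonal hematopoiesis, read 873 with CML EVs and 776 with control EVs on its brighter probe, 1.13-fold higher (log2 ratio 0.17). Its dimmer probe read 167 with CML EVs and 148 with control EVs, with the same log2 ratio of 0.17. The difference exceeded the SD of repeated spots on both probes (2.32 and 1.85 times) and stayed under the scanner software's error on both. Of all genes, 26.8% had a ratio larger in size than that of Tet2.

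Tet3, the TET enzyme best known from the oocyte and the nervous system, read 71.8 with CML EVs and 68.2 with control EVs (0.073), and its other probe read 34.3 with CML EVs and 27.6 with control EVs (0.31). Tet1, best known from embryonic stem cells, read 216 with CML EVs and 209 with control EVs (0.050), while its other probe read 77.3 with CML EVs and 80.7 with control EVs (-0.064). The probes of Tet1 thus disagreed in sign, and both Tet3 and Tet1 were within the SD of repeated spots on the probe used. Of the 6 TET probes, 5 were higher with CML EVs and 1, of Tet1, was lower.

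Of the PRC2 enzymes, Ezh1, the form that prevails in resting cells, read 2645.5 with CML EVs and 2482 with control EVs on its only probe, 1.07-fold higher (0.092). Ezh2, the form of dividing cells, read 1742 with CML EVs and 1776 with control EVs on its brightest probe (-0.028). Its other 4 probes had log2 ratios of -0.16, -0.085, -0.26 and -0.0074, so that 5 of 5 probes were lower with CML EVs, over a range of 0.25. The probe at -0.26 read 987 with CML EVs and 1180.2 with control EVs, 3.52 times the SD of repeated spots, although all 5 Ezh2 probes carry the same transcript accession. Ezh2 is itself among the 25 genes with 5 probes above background, and its range is the median of that set. Of these 25 genes, 3 (12%), Ezh2 among them, had all probes lower and 0 all higher, so neither value is independent of Ezh2.

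Asxl1, the partner of Bap1, read 3833 with CML EVs and 4189 with control EVs on its bright probe, 1.09-fold lower (-0.13). Its dim probe went the other way, at 104 with CML EVs and 98.6 with control EVs (0.075). Bmi1, the PRC1 subunit needed for HSC self-renewal in mice, read 742 with CML EVs and 747 with control EVs (-0.0097), and its dim probe 52.1 with CML EVs and 61.5 with control EVs (-0.24). Bmi1 therefore had the smallest ratio of the 10 genes on the probe used, and 94.1% of all genes had a larger one in size. Of the 10 Polycomb probes, 2 were higher and 8 lower with CML EVs, but 5 of the lower ones are probes of Ezh2. By gene, on the probe used, 1 was higher and 3 lower.

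**Figure D2:**
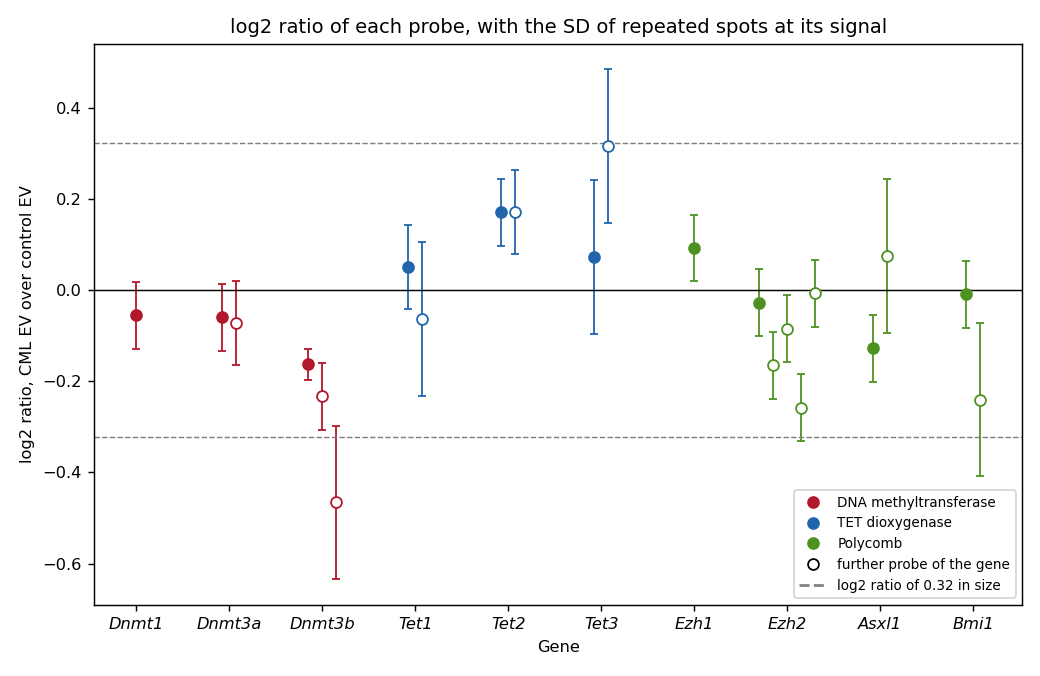
Log2 ratio (CML EV minus control EV) of every probe of the 10 regulators, 22 points, with the probe used for each gene filled, dashed lines at 0.32 in size, and the median SD of repeated spots at that signal as the error bar. The 6 methyltransferase probes lie below 0 and 5 of 6 TET probes lie above it. Below 0 are also 8 of 10 Polycomb probes, of which 5 are probes of Ezh2. The dim Dnmt3b probe lies farthest out at -0.47.

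These counts were read against all 13409 genes. Past 0.32 on the log2 scale 0 of the 10 regulators were higher and 0 lower with CML EVs, where 5.00% of all genes were higher and 5.25% lower. At 1.5-fold the counts were also 0 and 0, with 1.52% of all genes higher and 1.18% lower. At 1.1-fold Tet2 was higher and Dnmt3b lower, 1 of 10 in each direction, beside 17.3% and 17.2% of all genes. With 10 genes, these counts lie near the shares over all genes. The median log2 ratio of the 10 genes was -0.019, against 0.0065 over all genes, with 4 higher and 6 lower.

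The ratio was larger in size than the SD of repeated spots for 4 of the 10 regulators (Dnmt3b, Tet2, Ezh1 and Asxl1), and for 57.3% of all genes. It was larger than the scanner software's error for 0 of the 10, and for 18.7% of all genes. Neither count sets the regulators apart from the other genes on the array. A shared direction over the probes of 1 gene is also frequent: of the 3847 genes with 2 probes above background on both arrays, 28.7% had both lower and 33.0% both higher with CML EVs, and of the 885 genes with 3 such probes, 18.5% had all lower and 19.9% all higher.

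**Figure D3:**
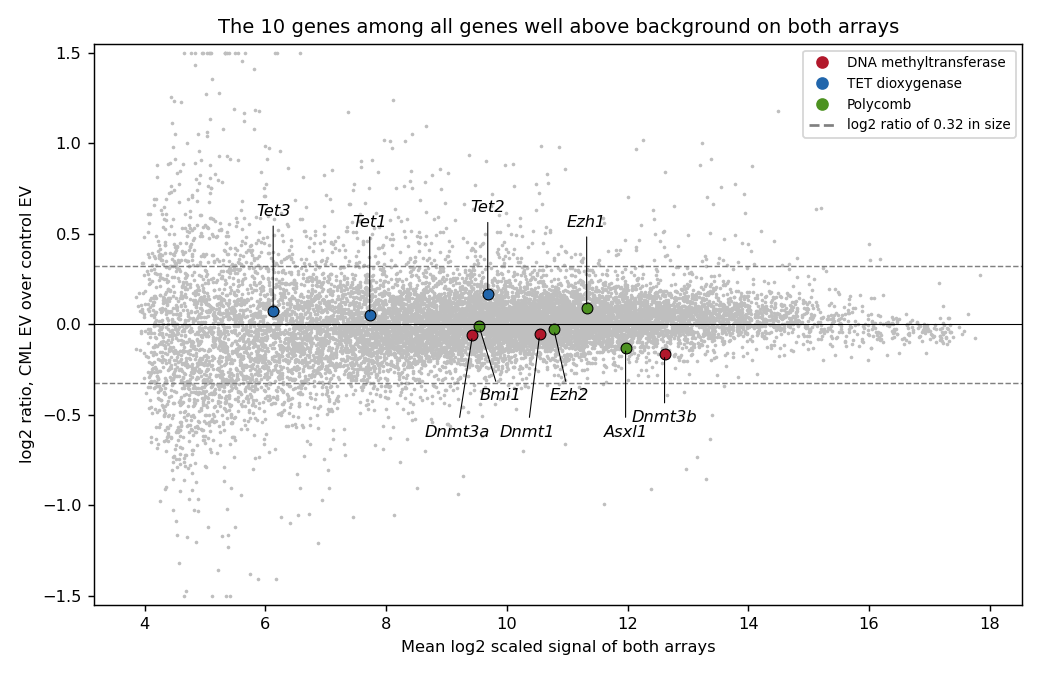
Log2 ratio (CML EV minus control EV) against the mean log2 scaled signal of both arrays, for the 13409 genes measured on both, as grey points, with the 10 regulators marked and named. The regulators lie inside the dense band, between -0.16 and 0.17, and 24 genes with ratios beyond 1.5 in size are drawn at the edge.

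The other genes of these pathways were taken from lists named for their function. Of the readers and cofactors of DNA methylation, 12 of 12 were well above background on both arrays, 7 higher and 5 lower with CML EVs, with a median log2 ratio of 0.032. Dnmt3l, the catalytically inactive partner that stimulates Dnmt3a and Dnmt3b, had the largest ratio of this list, on a single probe, at 377 with CML EVs and 263 with control EVs, 1.43-fold higher (0.52). Past 0.32 in size, 1 gene of the list was higher (Dnmt3l) and 1 lower (Zbtb4), beside 5.00% and 5.25% of all genes. The ratio of Dnmt3l was opposite in sign to those of Dnmt3a and Dnmt3b, although that of Dnmt3a was within the SD of repeated spots. Zbtb4, a zinc finger protein that binds methylated DNA, read 129 with CML EVs and 164 with control EVs, 1.27-fold lower (-0.34), and Hells, a remodeler needed for DNA methylation, read 377 with CML EVs and 424 with control EVs (-0.17).

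Of the genes for oxidation and removal of methylcytosine, 16 of 18 were measured on both arrays, 11 higher and 5 lower, with a median of 0.038 and none past 0.32 in size. Gadd45a, a stress-response gene tied to active demethylation, read 320 with CML EVs and 262 with control EVs (0.29). Cxxc5, a CG-binding protein that restrains Tet2, read 759 with CML EVs and 898 with control EVs (-0.24). Neil2, a base excision glycosylase, read 81.3 with CML EVs and 69.0 with control EVs (0.24), and so these 3 genes had the largest ratios of a list that otherwise stayed near 0.

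Of the other PRC2 subunits, 10 of 11 were measured, 7 higher and 3 lower, with a median of 0.011 and none past 0.32 in size. Mtf2, which guides PRC2 to CG-rich DNA, was lowest, at 1736 with CML EVs and 2058 with control EVs (-0.25), although its probes ranged up to 0.025. Epop, an elongin-binding accessory protein of PRC2, read 3126 with CML EVs and 3464 with control EVs (-0.15). Suz12, a core subunit without which Ezh2 is inactive, read 1464 with CML EVs and 1323 with control EVs (0.15), and 0.010 on the lowest of its probes. The PRC2 subunits thus lay on both sides of 0, as Ezh1 and Ezh2 did on the probes used.

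Of the other PRC1 subunits, 26 of 26 were measured, 11 higher and 15 lower, with a median of -0.082. Lower by more than 0.32 on the log2 scale were 2, Scml2 at 36.6 with CML EVs and 50.1 with control EVs (-0.45; its other probe -0.038), and Cbx7 at 53.7 with CML EVs and 72.2 with control EVs (-0.43). These 2 of 26 are close to the 5.25% of all genes, and with the normexp background correction the count was 0. Cbx7 is the chromobox protein known to favour HSC self-renewal in mice. Pcgf2, the closest relative of Bmi1, read 96.8 with CML EVs and 114 with control EVs (-0.24). The SD of repeated spots at such low signals was 0.17.

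Of a list of Bap1 and the genes around it, 8 of 9 were measured, 2 higher and 6 lower. The median was -0.048 and none was past 0.32 in size on the probe used. Bap1 itself read 1650 with CML EVs and 1600 with control EVs (0.044), and its other probe was at 0.40. The widest were Kdm1b, a demethylase of histone H3 lysine 4, at 408 with CML EVs and 451 with control EVs (-0.15), and Foxk2, a forkhead factor that binds Bap1, at 733 with CML EVs and 671 with control EVs (0.13). Asxl2, the sister gene of Asxl1, read 623 with CML EVs and 659 with control EVs (-0.080), with probes up to 0.21. Proliferation genes were measured as a check on Dnmt1 and Ezh2, which are known to follow cell division: 19 of 20 were well above background on both arrays, 11 higher and 8 lower, with a median of 0.019 and none past 0.32 in size. Birc5, a mitotic survivin, had the widest ratio of that list, at 20034 with CML EVs and 17837 with control EVs (0.17).

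**Figure D4:**
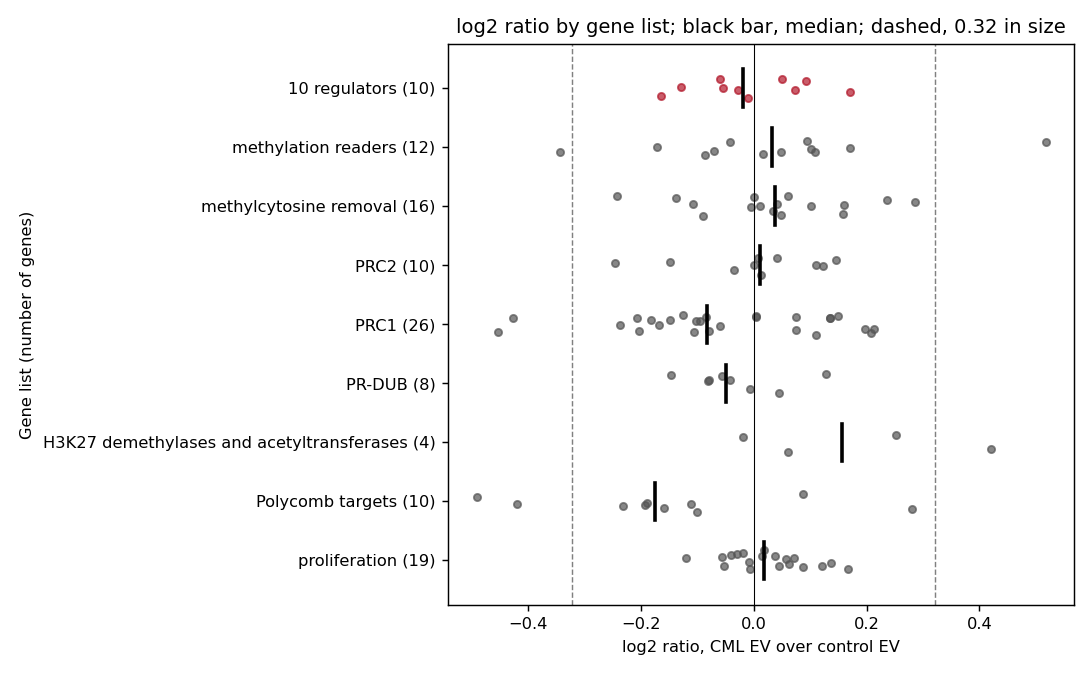
Log2 ratio (CML EV minus control EV) of each gene well above background on both arrays, by list, with the list's median as a bar, dashed lines at 0.32 in size and the 10 regulators on top. The medians lie between -0.17 for the Polycomb targets and 0.16 for the demethylases and acetyltransferases of lysine 27, and the 10 regulators' median lies at -0.019.

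Marker genes of other cells moved between the arrays, and these are bulk samples, in which fewer cells of a type and less RNA per cell cannot be told apart. All 6 neutrophil markers were higher with CML EVs, by log2 ratios of 0.27 to 1.18, with the largest ratio for Elane, at 34735 with CML EVs and 15311 with control EVs, and all 4 monocyte markers were higher, by 0.02 to 0.64. Of 11 markers of LKS+ cells, 10 were measured, 1 higher (Ly6a, 1985 with CML EVs and 1548 with control EVs) and 9 lower, among them Kit at 1529 with CML EVs and 1646 with control EVs. All 3 megakaryocyte markers were lower, with log2 ratios of -0.44 to -0.09. The 2 measured T cell markers were lower as well, at -0.17 and -0.07. The 2 measured erythroid markers were higher, both at 0.23, and all 3 mast cell markers were higher, by 0.03 to 0.11. Of 4 B cell markers, 0 were well above background on both arrays. The part of these cells in the regulators' ratios was not tested.

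**Figure D5:**
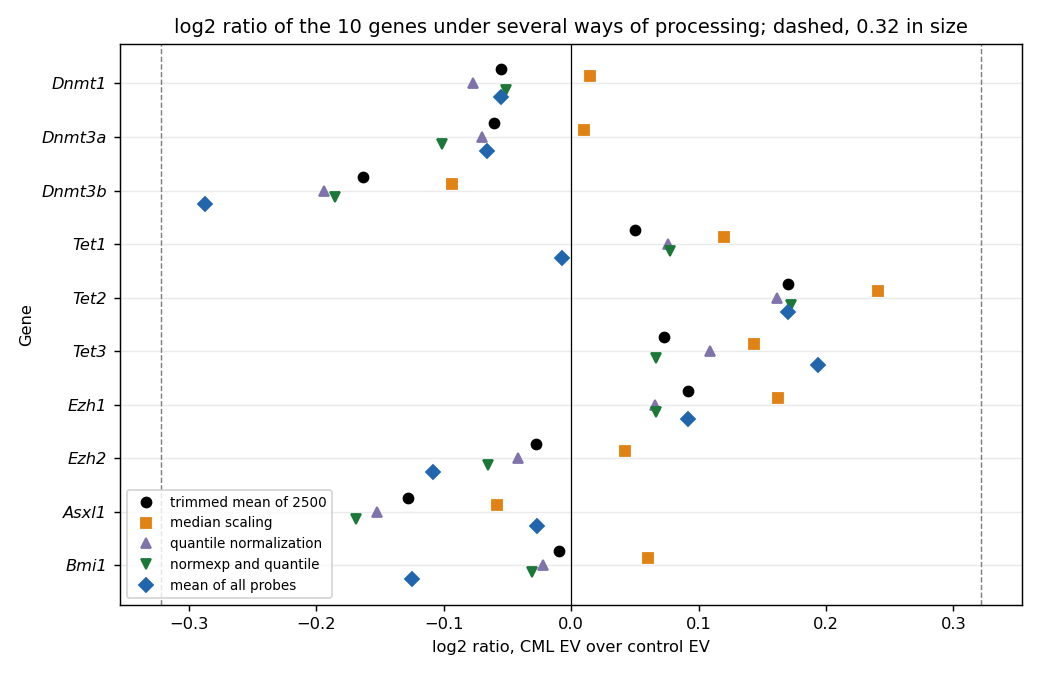
Log2 ratio (CML EV minus control EV) of the 10 regulators under 5 ways of processing the arrays, with dashed lines at 0.32 in size. Tet2, Tet3 and Ezh1 lie above 0 and Dnmt3b and Asxl1 below 0 in each, the mean of all probes puts Tet1 at -0.0070, and scaling by the median of the spots moves Dnmt1, Dnmt3a, Ezh2 and Bmi1 above 0, the farthest to 0.061.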

How the data were processed

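Total RNA of each culture was labelled with Cy3 and hybridised to an 8x60K mouse array, with 1 array per condition, both on 1 slide. The deposited values are scanner intensity: the authors used Agilent Feature Extraction 12.0.3.1, per the file headers, which subtracts background and flags outlier spots. The authors' value table is that intensity multiplied by a constant for either array.

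Control spots and outlier spots (88 with CML EVs, 95 with control EVs) did not enter. Scaling set the mean of each array at 2500 without the upper and lower 2% of spots, log2 was taken, and a gene's probe with the highest CML EV signal was used, as in the study's methods. The files name no genes, so probes were named through RefSeq accessions with the gene table of GRCm38.p6 (32994 of 56604 probes); the array header refers to another build, and no gene coordinates were taken from it. Promoters are RefSeq windows of GRCm38.p6. A gene counted in a list if well above background on both arrays. A gene that was so on 1 array only got a bound, for which the dimmer side was taken as the array's lowest well-measured signal or the probe's own, whichever was higher.

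The members and lists were chosen with earlier results of these data known. Named are all 10 regulators and, of each list, up to 3 genes with the largest absolute ratio, plus any past 1.5-fold. Other scalings, background correction (normexp, limma 3.58.1, R 4.3.3), probe choices, filters and folds were tried. Python 3.11.15 with pandas 2.3.3 did the rest, and the counting steps were tested on simulated data. The precision is limited by there being 1 array for either condition.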

Additional observations from a re-analysis of the deposited data

How the results depend on the processing

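In all, 12 alternative settings were run. The number of regulators past 0.32 on the log2 scale was 0 under every setting except the lower fold of 1.1, where it was 2 (Tet2 and Dnmt3b). Their median log2 ratio ranged from -0.041 with normexp to 0.052 with median scaling, which also set the median of all genes at 0.077. Relative to the median of all genes, scaling by a factor cannot move a gene. Where the order of genes could change (quantile normalization, normexp and the mean of all probes), each regulator lay on the same side of that median as before, except Tet1 with the mean of all probes. Single ratios changed sign for Dnmt1 (0.015), Dnmt3a (0.010), Ezh2 (0.042) and Bmi1 (0.061) with median scaling, which adds the same amount to every gene, and for Tet1 (-0.0070) with the mean of all probes, which also gave Dnmt3b -0.29, Ezh2 -0.11, Asxl1 -0.027 and Bmi1 -0.12. With normexp, 0 PRC1 subunits and 0 Polycomb targets were past 0.32, and the targets' median was -0.094. The count of methylation readers past 0.32 was 1 in place of 2 with median scaling, quantile normalization and normexp. With the mean of all probes, the genes of methylcytosine removal had 2 past it in place of 0. The list of Bap1 and the genes around it had 1 in place of 0, and the demethylases and acetyltransferases 0 in place of 1. With median scaling, methylcytosine removal had 1. Naming probes by gene name alone was not run, because the files hold no such column. No paired analysis was possible because there was a single array in each condition. The cause of the other shifts was not tested, and dim probes, with signals below 128, are the least certain.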

Other observations

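Of the 4 demethylases and acetyltransferases of histone H3 lysine 27 measured on both arrays, 3 were higher and 1 was lower with CML EVs, with a median log2 ratio of 0.16. Ep300, an acetyltransferase, read 269 with CML EVs and 201 with control EVs, 1.34-fold higher (0.42), but its other probe was at -0.031, and with the mean of all probes 0 genes of the list were past 0.32. Kdm6a, the X-linked demethylase lost in some human myeloid leukemias, read 194 with CML EVs and 163 with control EVs (0.25), and its relative Kdm6b read 538 with CML EVs and 516 with control EVs (0.061). No filter on dim probes brought the median of this list to 0.067, since it lets in Uty.

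Of 15 genes known as Polycomb targets in blood cells, 10 were measured on both arrays, 2 higher and 8 lower with CML EVs, with a median of -0.17, and 2 were lower by more than 0.32 on the log2 scale, beside 5.25% of all genes. Hoxa10, a HOX gene of primitive progenitors, read 161 with CML EVs and 226 with control EVs, 1.41-fold lower (-0.49), and -0.25 on its other probe. Cdkn2b, a cell cycle inhibitor often silenced in human myeloid neoplasms, read 16.7 with CML EVs and 22.3 with control EVs (-0.42), close to the background. Cdkn1c, another cell cycle inhibitor, went the other way, at 654 with CML EVs and 539 with control EVs (0.28).

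Cdkn2a, the classical target of Bmi1, was named after its values were seen. It was not well above background with CML EVs (10.2) and was with control EVs (18.9), which gives a bound of 1.39-fold lower with CML EVs. The bound takes no account of the error between spots, and both signals lie close to the background. It is 1 of 3 targets well above background on 1 array only. Of the others, Pax5 had a bound of 1.07-fold lower and Ebf1 one of 1.13-fold higher with CML EVs.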
